A study of Gallus gallus with 5 samples.

Results

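APOA1, ABCA1, MOGAT2 and MERTK, 4 genes that handle lipid or take up dying cells, were followed across the 5 RNA-seq libraries of a study of the blastoderm of the chicken, Gallus gallus. The blastoderm is the early embryo as a flat disc on the yolk of a laid egg. The 4 genes were chosen because their levels differed between these libraries, so their own values are given as a description and without a test. They are 4 of 10102 genes that could be named, and all 4 are among the 7733 with a level of at least 1 FPKM in 1 or more libraries. FPKM counts sequenced fragments relative to transcript length and to all mapped fragments, so levels of different genes can be set side by side per length.

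Storage lasted 7 days, at 4, 16 or 24 °C with 1 library for each temperature. Another library was made after 4 h of incubation at 37 °C, and the last from blastoderms labelled only as unstored. Whether the incubated blastoderms had been stored beforehand is not stated in the labels. Neither breed, sex, stage nor the number of blastoderms per library is stated in the labels. With a single library for every condition, no difference has a replicate check, and none carries a p-value or an error. The title of the series names dormancy, a pause of development in storage that incubation ends. Whether development had fully stopped at each storage temperature, 24 °C among them, was not measured here.

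The labelled tissue was checked against markers of cell types. Of 8 epiblast markers with a matched row, 7 were at 1 FPKM or more in every library, and their summed level was 1660, 634 and 666 FPKM in the libraries stored at 4, 16 and 24 °C, 1312 in the incubated library and 1640 in the unstored library. The 9 hypoblast and endoderm markers summed to 197, 74.3, 107, 158 and 123 FPKM in the same order. The yolk sac endoderm and liver markers, 14 genes, summed to between 6.68 and 10.1 FPKM. RNA of a whole blastoderm was measured, so fewer cells of a type and less RNA per cell cannot be told apart in any result below. FPKM summed to between 333528 and 389061 per library, and the depth behind a value is unknown.

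As background, APOA1 encodes the main protein of high-density lipoprotein, the particle that carries cholesterol and phospholipid away from cells. ABCA1 is the membrane transporter that loads these lipids onto APOA1, and in chickens it lies on the Z sex chromosome, where a mutation of it causes a bird with almost no high-density lipoprotein. MOGAT2 is an acyltransferase that joins a fatty acid to monoacylglycerol, a step in the resynthesis of triacylglycerol known best from the mammalian intestine. MERTK is a receptor tyrosine kinase of the TAM family, which binds dying cells through the bridging proteins GAS6 and PROS1 and has been studied most in mammalian macrophages and retinal pigment epithelium. The chicken gene was first described as c-Eyk, the cellular form of a retroviral oncogene. Engulfed cells bring in lipid, and in mammalian macrophages their uptake is followed by export of cholesterol through ABCA1.

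APOA1 was higher than in the unstored library in all 4 other libraries, and its level was greater at each higher storage temperature. It had 46.6 FPKM after storage at 4 °C, 113 at 16 °C, 198 at 24 °C, 103 after incubation and 21.4 in the unstored library. Storage at 24 °C gave the highest value and no storage the lowest, and the libraries stored at 16 °C and incubated at 37 °C lay close together, at 1.09-fold of each other.

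Differences are given on the log2(FPKM + 1) scale, where changes of low genes come out too small. APOA1 differed from unstored by 1.09 at 4 °C, 2.35 at 16 °C, 3.16 at 24 °C and 2.22 after incubation. The difference at 24 °C was the 2nd highest of 7690 genes compared, and those at 4 °C, 16 °C and after incubation ranked 31, 16 and 22 from the top. The word 2-fold below stands for a difference of at least 1 on this scale, with levels above 0 in both libraries. Of all genes compared, 0.637% were at least 2-fold higher than unstored at 4 °C, 7.65% at 16 °C, 10.5% at 24 °C and 8.48% after incubation. At 4 °C the call of APOA1 depended on the scaling of the libraries, with a difference of 0.97 under median-ratio size factors. Only 10 of 7662 genes (0.131%) above 0 in all libraries, APOA1 among them, were at least 2-fold higher than unstored in all 4 other libraries.

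**Figure D1:**
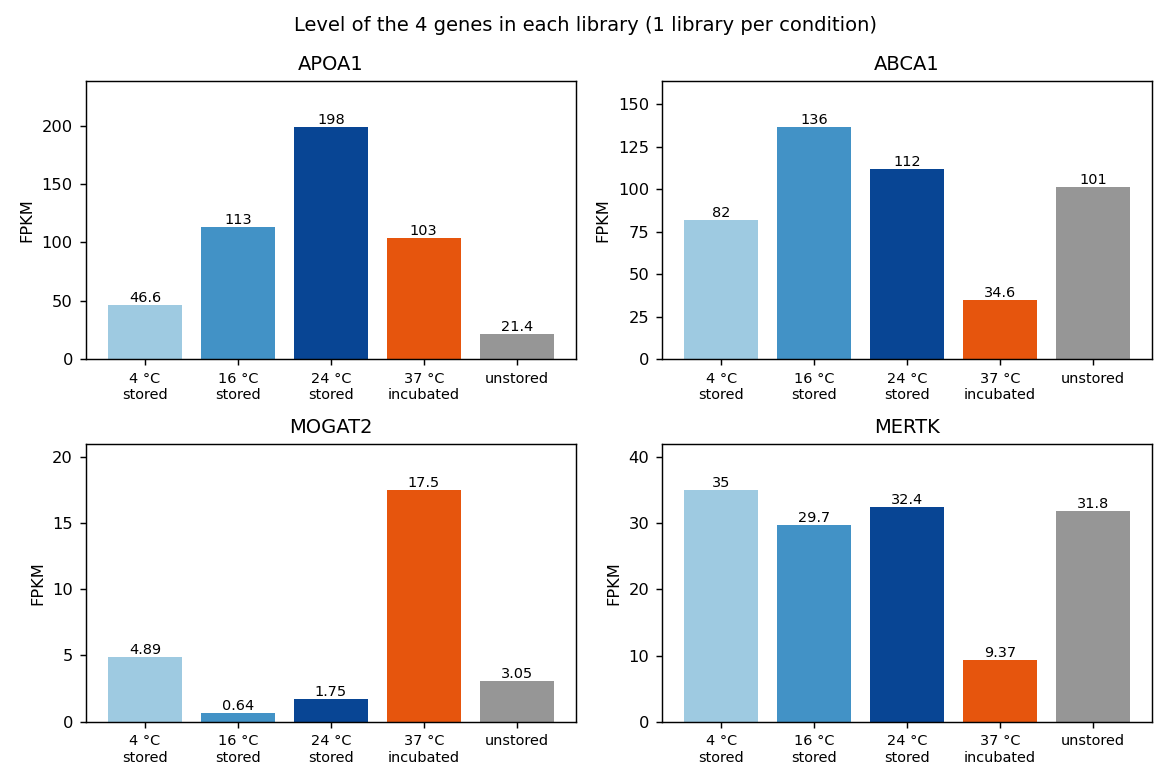
Level in FPKM (vertical axis, linear from 0) of APOA1, ABCA1, MOGAT2 and MERTK in the 5 libraries, 1 bar per library and no error bars, since each condition has 1 library. APOA1 is lowest in the unstored library at 21.4 FPKM, ABCA1 and MERTK are lowest in the incubated library at 34.6 and 9.37 FPKM, and MOGAT2 is highest there at 17.5 FPKM.

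ABCA1, the exporter that hands lipid to APOA1, did not follow it. It had 82.0 FPKM at 4 °C, 136 at 16 °C, 112 at 24 °C, 34.6 after incubation and 101 in the unstored library. The incubated library stood apart as the low one, and the stored libraries lay on both sides of the unstored library. Incubation gave 2.92-fold less than the unstored library, a log2 difference of -1.52, which ranked 35 from the bottom of 7700 genes, where 2.53% of all genes were at least 2-fold lower. The stored libraries differed from unstored by -0.30, 0.43 and 0.14 at 4, 16 and 24 °C, none of them at least 2-fold.

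Against the incubated library, ABCA1 was higher by 1.22 at 4 °C, 1.95 at 16 °C and 1.66 at 24 °C on the log2 scale. Of all genes, 2.84%, 5.44% and 5.40% were at least 2-fold higher in these 3 comparisons. Among the stored libraries it was highest at 16 °C, and no pair of them was 2-fold apart. APOA1 relative to unstored was 4.83-fold after incubation where ABCA1 was 0.342-fold, and at 24 °C APOA1 was 9.28-fold where ABCA1 was 1.11-fold.

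MERTK, the receptor for dying cells, was nearly level in 4 libraries and low in the incubated one. It had 35.0 FPKM at 4 °C, 29.7 at 16 °C, 32.4 at 24 °C, 9.37 after incubation and 31.8 in the unstored library. The stored libraries differed from unstored by 0.14, -0.10 and 0.03 on the log2 scale, near the median of all genes at each temperature (0.10, -0.04 and 0.04). After incubation the difference was -1.66, or 3.39-fold less than unstored, which ranked 18 from the bottom of 7700 genes.

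Each storage temperature was well above incubation for MERTK, by 1.80 at 4 °C, 1.56 at 16 °C and 1.69 at 24 °C. The difference at 4 °C was the 17th highest of 7703 genes. Both MERTK and ABCA1 were at least 2-fold lower in the incubated library than in each of the other 4, a pattern found in 15 of 7662 genes (0.196%).

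MOGAT2, the acyltransferase, had the widest fold range of the 4 genes and the lowest level in each library except the incubated one, where MERTK was lower. It had 4.89 FPKM at 4 °C, 0.64 at 16 °C, 1.75 at 24 °C, 17.5 after incubation and 3.05 in the unstored library. The incubated library was the high one, and the 16 °C library the low one, with a 27.3-fold span between them. After incubation it was 5.73-fold of unstored, a log2 difference of 2.19 that ranked 25 from the top of 7700 genes, next to APOA1 at 22.

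At 16 °C the difference of MOGAT2 from unstored was -1.30, where 8.75% of all genes were 2-fold lower or more. This value rests on a level under 1 FPKM and was -0.51 with a pseudocount of 5. At 4 and 24 °C the differences of 0.54 and -0.56 were under 2-fold. Against incubation the differences of MOGAT2 were -1.65 at 4 °C, -3.49 at 16 °C and -2.75 at 24 °C. They ranked 39, 8 and 14 from the bottom, where 4.73%, 14.3% and 10.2% of all genes were 2-fold lower or more. The size of the difference at 16 °C ranged from -4.57 to -1.99 between pseudocounts of 0.1 and 5. MOGAT2 was also lower at 16 °C than at 4 °C (-1.84) and lower at 24 °C than at 4 °C (-1.10), where 13.0% and 11.7% of all genes were 2-fold lower, and both values lay under 2-fold with a pseudocount of 5 (-0.81 and -0.55). Levels 2-fold higher in the incubated library than in each of the other 4 were seen in 97 of 7662 genes (1.27%), and 9 of these (0.117% of all) were also, as MOGAT2 was, at least 2-fold lower at 16 °C than unstored.

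**Figure D2:**
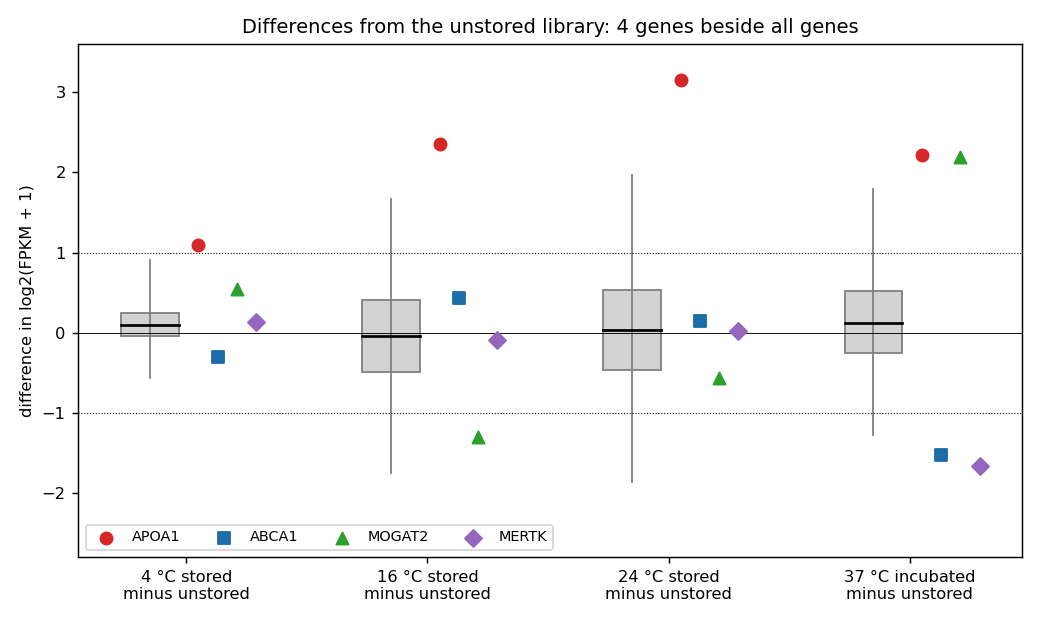
Difference in log2(FPKM + 1) from the unstored library (vertical axis) for the 4 genes (symbols) beside all genes compared (grey box from the 25th to the 75th percentile, black line at the median, grey line from the 1st to the 99th percentile), with dotted lines at 1 and -1. APOA1 lies above the 99th percentile in all 4 comparisons, and in the incubated library MOGAT2 lies above it while ABCA1 (-1.52) and MERTK (-1.66) lie below the 1st percentile (-1.28).

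Over the 10 pairs of libraries, APOA1 was at least 2-fold different in 7, MOGAT2 in 7, and ABCA1 and MERTK in 4 each, all 4 of which involve the incubated library. How many of all genes were 2-fold different in as many pairs was not computed. Shares of all genes varied by pair. They were 0.637% higher and 0.0909% lower for 4 °C against unstored, and 9.52% and 11.7% for 24 °C against 4 °C. The pair of 24 °C against 16 °C, where 2.83% of all genes were 2-fold higher and 1.23% lower, held none of the 4 genes. APOA1 differed there by 0.81, MOGAT2 by 0.75, ABCA1 by -0.28 and MERTK by 0.12. The difference of MOGAT2 was 1.32 with a pseudocount of 0.1. Between 16 and 4 °C and between 24 and 4 °C, APOA1 was higher by 1.26 and 2.07, where 7.27% and 9.52% of all genes were 2-fold higher. Against incubation APOA1 was lower at 4 °C (-1.13), near level at 16 °C (0.13) and 0.93 at 24 °C, a value that reached 2-fold with size factors and was 1.05 with rescaled libraries. All comparisons with unstored share that 1 library, and all comparisons with incubation share the incubated one, so their values are not separate evidence.

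For each gene, the genes with the most similar pattern were found by the root mean square difference of their 4 log2 differences from unstored, among 5992 genes with a symbol and at least 5 FPKM in 1 library. The nearest to APOA1 were FBLN1, an extracellular matrix protein, at 0.42, then MMP9, a metalloprotease, at 0.57, STX7, a syntaxin of late endosomes, at 0.57, SEBOX at 0.61 and LIMS2 at 0.61. FBLN1 had 10.5, 30.8 and 76.9 FPKM at 4, 16 and 24 °C, 30.0 after incubation and 7.44 in the unstored library. It was thus also greatest at 24 °C and least in the unstored library.

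The nearest to ABCA1 were TM7SF3 (0.12), CREBL2 (0.16), the histone acetyltransferase KAT6B (0.18), the splicing factor SRSF5 (0.22) and the AP-1 subunit FOSL2 (0.23). TM7SF3 had 10.5, 16.0 and 14.2 FPKM at 4, 16 and 24 °C, 3.93 after incubation and 11.7 in the unstored library. MERTK was nearest to the general transcription factor GTF2B (0.30), MBIP (0.30), FAM175A (0.32), the growth factor FGF8 (0.32) and ESYT3 (0.32), and ABCA1 came 9th at 0.35. In the list of ABCA1, MERTK came 25th. MOGAT2 was nearest to FAM120C (0.28), the calcium channel TRPV6 (0.33), the mitochondrial mutase MUT (0.40), TNRC18 (0.41) and the hyaluronidase HYAL2 (0.44). FAM120C had 41.3, 9.92 and 13.3 FPKM at 4, 16 and 24 °C, 96.3 after incubation and 26.7 in the unstored library.

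Genes that lie beside the 4 genes in the chicken assembly GRCg7b, up to 3 protein-coding genes on each side, mostly did not share their pattern. They were looked up after the values of the 4 genes were known. APOA1 lies in a cluster with APOA4, APOA5 and APOC3, and of these APOA4 stayed at or below 0.62 FPKM and APOA5 at or below 1.17 FPKM in every library. PAFAH1B2, on the other side, was level at between 57.3 and 69.1 FPKM.

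Beside ABCA1, no neighbour with a matched row was lower after incubation than in the unstored library. NIPSNAP3A differed from unstored by 0.69, SLC44A1, a choline transporter, by 0.88, and FSD1L by 0.24 in the incubated library. At 16 and 24 °C SLC44A1 was 1.38 and 1.60 and FSD1L 2.24 and 1.82, where ABCA1 was 0.43 and 0.14. The other neighbours with a matched row were under 2-fold there, and 7.65% and 10.5% of all genes were 2-fold higher. LPL, lipoprotein lipase, was also among them and differed by 0.96, with 20.7 FPKM after incubation and 10.1 in the unstored library. These neighbours of ABCA1 are on the same chromosome, and the sexes of the blastoderms are not given in the labels.

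MOGAT2 lies next to DGAT2, the acyltransferase of the following step, which makes triacylglycerol from diacylglycerol. DGAT2 had 19.5, 9.54 and 7.09 FPKM at 4, 16 and 24 °C, 11.6 after incubation and 14.5 in the unstored library. It differed from unstored by -0.30 in the incubated library, where MOGAT2 differed by 2.19. MAP6, on the other side, was 1.12 there. The neighbours of MERTK with a matched row, BUB1, ANAPC1 and ZC3H8, differed by 0.56, -0.0024 and -0.61 after incubation. At 16 °C they differed by -0.12, -0.08 and 1.15, where MERTK was -0.10.

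The pathways around the 4 genes were described with 9 lists of genes, 6 of lipid handling and 3 of dead cell uptake, without the 4 genes themselves. Of 171 other genes in the lipid lists, 106 had a matched row and 79 reached 1 FPKM in 1 or more libraries. Of 99 in the uptake lists, 69 and 54 did. In the lipid lists, with 78 genes compared, 4 genes were 2-fold higher than unstored and none lower at 4 °C. At 16 °C 7 were higher and 2 lower, at 24 °C 16 and 3, and after incubation 14 and 1. As shares these were 5.13%, 8.97%, 20.5% and 17.9% higher, beside 0.637%, 7.65%, 10.5% and 8.48% of all genes, and the shares of all genes that were lower were 0.0909%, 8.75%, 8.35% and 2.53%. The median differences were 0.21, 0.21, 0.33 and 0.49, beside 0.10, -0.04, 0.04 and 0.12 over all genes.

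In the uptake lists no gene of 54 was 2-fold different at 4 °C, beside 0.637% of all genes higher and 0.0909% lower. There were 6 higher and 1 lower at 16 °C, 7 and 4 at 24 °C, and 6 and none after incubation. The shares higher were 11.1% at 16 °C, 13.0% at 24 °C and 11.1% after incubation, beside 7.65%, 10.5% and 8.48% of all genes. The shares lower were 1.85%, 7.41% and 0%, beside 8.75%, 8.35% and 2.53% of all genes. The medians were 0.17, -0.12, 0.09 and 0.25 at 4, 16 and 24 °C and after incubation. A gene can pass the low-value filter through the 1 library where it is high, so these counts and medians are no support for a change of the pathways.

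**Figure D3:**
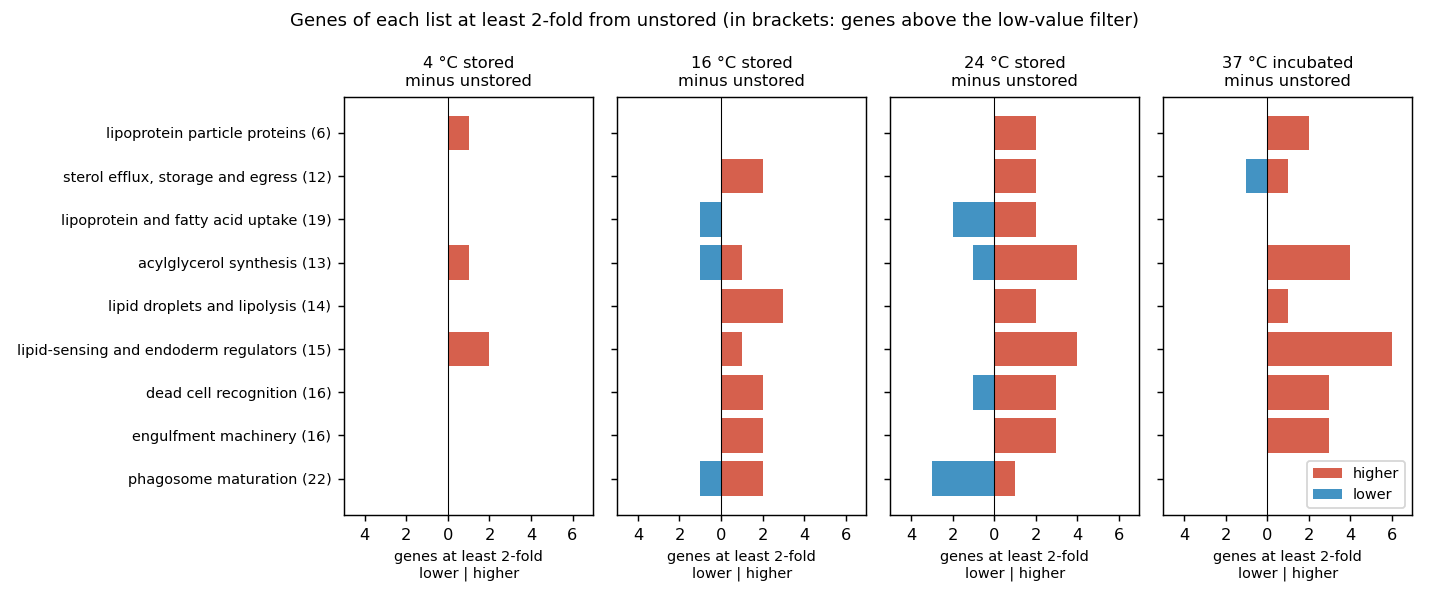
Number of genes of each of the 9 lists (rows, with the number above the low-value filter in brackets) that were at least 2-fold higher (red, to the right) or lower (blue, to the left) than unstored, in 1 panel for each of the 4 other libraries. At 24 °C 16 of 78 lipid handling genes were higher (20.5%) and 3 lower (3.85%), beside 10.5% and 8.35% of all genes. After incubation 14 were higher (17.9%) and 1 lower (1.28%), beside 8.48% and 2.53% of all genes. A gene can pass the low-value filter through the 1 library where it is high.

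Among the proteins of lipoprotein particles, APOA2 was the gene closest to APOA1 in role. APOA2 had 2.15, 1.62 and 3.56 FPKM at 4, 16 and 24 °C, 6.50 after incubation and 0.54 in the unstored library. It was lowest in the unstored library, as APOA1 was, but highest after incubation. Its differences of 1.03, 1.57 and 2.28 at 4 °C, 24 °C and after incubation reached 2-fold, and that of 0.77 at 16 °C did not. SAR1B, a GTPase needed to export large lipoproteins from the endoplasmic reticulum, was 1.35 at 24 °C and 1.03 after incubation. Of 6 genes compared in this list, 2 were 2-fold higher at 24 °C and 2 after incubation (33.3% each), beside 10.5% and 8.48% of all genes.

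The genes that build particles around APOB were close to 0 in all libraries. APOB, the protein of very low density lipoprotein, was at or below 0.02 FPKM, and MTTP, which loads lipid onto it, at or below 0.08 FPKM. TTR was at or below 0.19 FPKM and ALB at or below 0.43 FPKM, both plasma proteins of liver and yolk sac. APOA1, at between 21.4 and 198 FPKM, was far above these genes. Of 14 yolk sac and liver markers, 3 reached 1 FPKM in a library. They were LRP2 (up to 5.97 FPKM), TFPI2 (up to 4.67 FPKM) and VIL1 (up to 1.18 FPKM).

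Of 18 receptors and carriers of lipid uptake, 2 were 2-fold higher and 2 lower at 24 °C, 11.1% each. Of all genes, 10.5% were higher and 8.35% lower there. None of the 18 was 2-fold different after incubation, where 8.48% of all genes were higher and 2.53% lower. Some came close, with LRP2 at 0.99, LPL at 0.96 and VLDLR at 0.94, and the lowest was GPIHBP1 at -0.61. The median of the list was 0.26 there, beside 0.12 of all genes. VLDLR, the receptor of yolk lipoproteins in the avian oocyte, had 57.5 FPKM at 24 °C and 23.5 in the unstored library (1.26), and LRP2, megalin, was 1.11. LRP8, a receptor of the same family, was -1.37 and the fatty acid binding protein FABP7 -1.54. At 16 °C GPIHBP1, which anchors lipoprotein lipase, was -1.15, with levels at or below 1.85 FPKM. It was the only 1 of the 18 that was 2-fold lower there (5.56%, beside 8.75% of all genes).

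Among the genes of sterol efflux, storage and egress, the genes that were 2-fold higher at 16 and 24 °C were not those of efflux. They were 2 of 12 at each temperature (16.7%), beside 7.65% and 10.5% of all genes. NPC1, which moves cholesterol out of the lysosome, had 18.0, 35.1 and 57.9 FPKM at 4, 16 and 24 °C, 18.3 after incubation and 15.6 in the unstored library. The sterol-binding protein OSBPL2 was 1.18 at 16 °C and 1.50 at 24 °C. Of the other sterol exporters with a matched row, ABCG1 stayed at or below 2.26 FPKM, ABCG5 at or below 0.15 FPKM and ABCG8 at or below 0.02 FPKM. After incubation 1 of 12 other genes of this list was at least 2-fold lower and 1 higher, 8.33% each. Of all genes, 2.53% were lower and 8.48% higher. The lower one was STARD5, a sterol carrier, at 7.04 FPKM there and 16.1 in the unstored library (-1.09). The higher one was ABCA5 (1.11).

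NR1H3, the liver X receptor that switches on ABCA1 in mammals when sterols accumulate, had 16.3, 28.2 and 24.7 FPKM at 4, 16 and 24 °C, 13.4 after incubation and 22.4 in the unstored library. Its differences from unstored of -0.43, 0.32, 0.13 and -0.70 were below 2-fold in each comparison, beside -0.30, 0.43, 0.14 and -1.52 for ABCA1.

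Of 13 other genes of acylglycerol synthesis, 4 were 2-fold higher after incubation (30.8%, beside 8.48% of all genes). None was 2-fold lower there, beside 2.53% of all genes. At 24 °C 4 were higher and 1 lower, beside 10.5% and 8.35% of all genes. None of the 4 that were higher after incubation was below its unstored level at 16 °C, where MOGAT2 was -1.30. AGPAT2, AGPAT3 and AGPAT4, which acylate lysophosphatidic acid, were 1.75, 1.15 and 1.60 after incubation, and 0.36, 0.26 and 0.78 at 16 °C. MBOAT2, an acyltransferase of lysophospholipids, was 1.45 after incubation, 1.47 at 16 °C and 1.73 at 24 °C. AGPAT5 was -0.87 at 16 °C, -1.25 at 24 °C and 0.46 after incubation. LCLAT1, an acyltransferase of cardiolipin and other phospholipids, was 2-fold lower at 16 °C, as MOGAT2 was, at 14.7 FPKM there and 31.9 in the unstored library (-1.07), and 0.10 after incubation.

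Of 14 genes of lipid droplets and lipolysis, 3 were 2-fold higher than unstored at 16 °C (21.4%, beside 7.65% of all genes). At 24 °C 2 were higher (14.3%, beside 10.5%) and after incubation 1 (7.14%, beside 8.48%). None was 2-fold lower in any of these comparisons, beside 8.75%, 8.35% and 2.53% of all genes. PLIN2, the most abundant of them and a droplet coat protein, had 136, 84.8 and 90.0 FPKM at 4, 16 and 24 °C, 192 after incubation and 98.0 in the unstored library, and its 0.97 after incubation fell short of 2-fold. PNPLA2, the first lipase of triacylglycerol breakdown, had 16.1 FPKM at 16 °C and 5.76 in the unstored library (1.34), and ABHD6, a monoacylglycerol lipase, was 1.31 there. MGLL, which also breaks down monoacylglycerol, was 1.07 at 24 °C, at 1.73 FPKM and 0.30 in the unstored library, and LDAH, a droplet hydrolase, was 1.07. PLIN4, another coat protein, was 1.12 at 16 °C and 1.26 after incubation, at or below 1.98 FPKM.

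Of 15 regulators of lipid genes in liver and endoderm, most of them transcription factors, 6 were at least 2-fold higher after incubation. None of the 15 was 2-fold lower, beside 8.48% of all genes higher and 2.53% lower. The other 9 did not reach 2-fold, and of these NR1H3 (-0.70), PPARD (-0.67) and INSIG1 (-0.26) had values below unstored. HNF4A, which activates APOA1 in mammals, had 5.69, 1.08 and 4.08 FPKM at 4, 16 and 24 °C, 26.3 after incubation and 0.83 in the unstored library. Its differences were 1.87, 0.18, 1.47 and 3.90, so that at 16 °C, where APOA1 was 2.35, HNF4A was near its unstored level.

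FOXA2 was 1.39, PPARA 1.85, PPARG 1.55 and the coactivator PPARGC1A 1.31 after incubation. PPARA, which drives fatty acid oxidation, had 7.56 FPKM there and 1.38 in the unstored library. In the stored libraries FOXA2 was 1.21 at 4 °C and -0.32 at 16 °C.

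The partners of MERTK in recognising dying cells did not share its low level after incubation. AXL, a receptor of the same family, had 52.9, 35.1 and 34.5 FPKM at 4, 16 and 24 °C, 59.2 after incubation and 43.4 in the unstored library. The naming table also gives it the name TYRO3, and which receptor of the family this row measures was not settled. After incubation the difference from unstored was -1.66 for MERTK and 0.44 for AXL. PROS1, a ligand of the family, had 6.53, 17.8 and 25.5 FPKM at 4, 16 and 24 °C, 12.2 after incubation and 7.43 in the unstored library. It was at least 2-fold higher at 16 °C (1.16) and at 24 °C (1.65). GAS6 was not analysed here.

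The other route of recognition runs through MFGE8, a bridging protein that binds phosphatidylserine, and the integrins that hold it. MFGE8 had 115, 91.3 and 72.5 FPKM at 4, 16 and 24 °C, 133 after incubation and 98.2 in the unstored library, under 2-fold in each comparison. The integrin subunit ITGAV was 0.91, 1.15 and 2.39 at 4, 16 and 24 °C and 2.89 after incubation, where it had 60.1 FPKM against 7.24 in the unstored library. Its partner ITGB3 was 1.76 at 24 °C and 1.43 after incubation. These integrins also bind extracellular matrix. CX3CL1, a chemokine, was 1.35 after incubation, and THBS1, a matrix protein, -1.17 at 24 °C. Of 16 other genes of dead cell recognition, 12.5% were 2-fold higher at 16 °C, and 18.8% both at 24 °C and after incubation. Beside these stood 7.65%, 10.5% and 8.48% of all genes. THBS1 was the only 1 that was 2-fold lower at 24 °C (6.25%, beside 8.35% of all genes).

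Of 16 genes of the engulfment machinery, 3 were at least 2-fold higher after incubation, ELMO1 (1.54), ELMO3 (1.17) and VAV3 (1.26). This was 18.8% of the list, beside 8.48% of all genes. None of the list was 2-fold lower there, beside 2.53% of all genes. ELMO proteins and VAV3 help to activate the GTPase RAC. ELMO3 and RAC3 were higher at 16 °C (1.01 and 1.72) and at 24 °C (1.31 and 1.56), with VAV3 at 1.66 at 24 °C. These were 12.5% of the list at 16 °C and 18.8% at 24 °C, beside 7.65% and 10.5% of all genes. None of the list was 2-fold lower at these temperatures, beside 8.75% and 8.35% of all genes.

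Of 22 genes of phagosome maturation, 9.09% were 2-fold higher and 4.55% lower at 16 °C, beside 7.65% and 8.75% of all genes. At 24 °C the shares were 4.55% and 13.6%, beside 10.5% and 8.35% of all genes. LAMP1, a lysosomal membrane protein, was 1.52 at 16 °C and 1.76 at 24 °C, and PIK3C3, the lipid kinase of early endosomes, was 1.27 at 16 °C. RAB7A, the GTPase of late endosomes, was lower, with 106, 40.8 and 31.0 FPKM at 4, 16 and 24 °C, 49.8 after incubation and 91.9 in the unstored library. Its differences were -1.15 and -1.54 at the 2 warmer storage temperatures. DNM1 (-1.17) and SNX1 (-1.32) were lower at 24 °C. None of the 22 was 2-fold different after incubation, where MERTK was low, beside 8.48% of all genes higher and 2.53% lower.

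**Figure D4:**
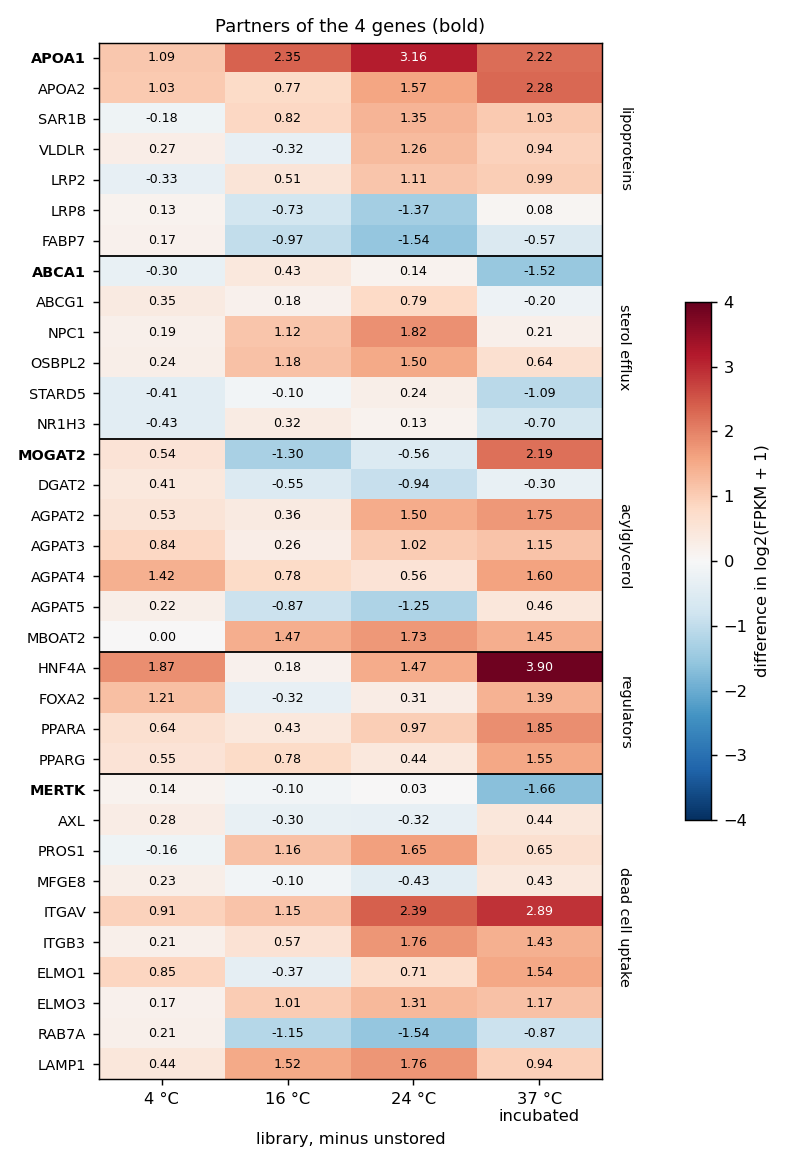
Difference in log2(FPKM + 1) from the unstored library (colour and printed value) in the 4 other libraries (columns). Rows, grouped by role, are the 4 genes (bold) and a selection of the other genes named in the text. Of the genes shown, ABCA1 (-1.52), STARD5 (-1.09) and MERTK (-1.66) are those at or below -1 in the incubated column, beside ITGAV at 2.89 and HNF4A at 3.90.

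Markers of other cells moved with some of these values, and their part in them was not tested. White blood cell markers, which include the phagocytes where MERTK and ABCA1 are best known, summed to 35.2, 40.7 and 68.0 FPKM at 4, 16 and 24 °C, 31.2 after incubation and 32.4 in the unstored library, over 13 genes. Most of this came from CYBB (27.6, 15.3, 40.4, 16.7 and 26.4 FPKM in that order) and LCP1 (1.24, 18.5, 21.1, 6.57 and 1.79 FPKM). The defining markers PTPRC and SPI1 were at or below 1.24 and 0.08 FPKM. CYBB and MERTK were both lower after incubation than in the unstored library, but LCP1 was higher.

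Egg white markers, 7 genes, summed to 4.26, 11.6 and 33.0 FPKM at 4, 16 and 24 °C, 7.43 after incubation and 5.67 in the unstored library. Like APOA1 they were highest at 24 °C. There the 3 above the low-value filter were each 2-fold higher than unstored, beside 10.5% of all genes. TF, ovotransferrin, had 14.6 FPKM at 24 °C and 1.71 in the unstored library (2.52), AVD, avidin, 11.6 and 2.59 (1.81), and SPP1, osteopontin, 5.99 and 1.04 (1.78). Ovalbumin, OVAL, the defining gene of the list, stayed at or below 0.05 FPKM, and OVALY was listed at 0 in all libraries. The hypoblast and endoderm sum was lowest at 16 °C, at 74.3 FPKM and 123 in the unstored library, where APOA1 was 5.29-fold of unstored.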

How the data were processed

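The authors deposited FPKM values per RefSeq transcript accession, 1 column for each of the 5 libraries, per the file headers. Per the labels' protocols, total RNA was selected for poly(A), made into TruSeq libraries and read as pairs of 101 bp on an Illumina HiSeq. The submitters' processing notes name Cufflinks 2.0.2, TopHat2 2.0.8 and, as genome build, galGal4, without saying what each was used for. Neither the annotation release nor a scaling between libraries is stated there. FPKM values with 2 decimals do not give the counts behind them, so the depth is unknown and no counting interval was computed.

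Of 32188 rows, 12609 (39.2%) were named by matching accessions, without version, to a RefSeq table of GRCg7b, another build. Its coordinates were used only to order the genes beside the 4 genes. Rows of a symbol were summed. Each of the 4 genes had 1 matched row, so isoforms under other accessions are left out, and MOGAT2 rests on a predicted transcript. List genes were matched by current symbol only: 225 of 339 had a row. Differences are between log2(FPKM + 1) values of 2 libraries, after a filter of 1 FPKM in at least 1 library. With 1 library per condition no test across genes was made. Values were computed with Python 3.11.15, pandas 2.3.3 and numpy 2.4.6.

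The 4 genes, the lists and the partners were chosen with earlier results of these data known. List genes named in the text were at least 2-fold from unstored in a comparison (the 6 largest where a list had more) or were partners of the 4 genes. Alternatives were pseudocounts of 0.1 and 5, median-ratio size factors, rescaling to 1000000 FPKM per library, the highest row per symbol, curated rows only, no filter, and a mean of at least 5 FPKM.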

Additional observations from a re-analysis of the deposited data

How the results depend on the processing

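With 1 library per condition no library could be left out. No paired analysis was possible because each condition has 1 library and no test was made. Of 92 values of the 4 genes against unstored under the alternatives, 89 stayed on the same side of 2-fold and none that was called changed direction. APOA1 at 4 °C was 0.97 with size factors and 0.97 with a pseudocount of 5, and MOGAT2 at 16 °C was -0.51 with a pseudocount of 5. The signs of MERTK at 16 and 24 °C, near 0, depended on the scaling. MOGAT2 has no curated row, so that setting gave no value for it. In the other 6 pairs of libraries 132 of 138 values stayed on their side.

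Counts past 2-fold moved most with the pseudocount. A small pseudocount gives a larger weight to low genes, and whether this moved the counts was not tested. With 0.1, all genes higher and lower were 174 and 59 at 4 °C, 952 higher at 16 °C, and 1096 and 362 after incubation. Lipid genes were 8 higher at 4 °C, 14 and 5 at 16 °C, 26 and 7 at 24 °C, and 25 and 3 after incubation, and 4 uptake genes were lower at 16 °C. With 5, all genes were 6 and 0 at 4 °C, 160 and 312 at 16 °C, 260 and 338 at 24 °C, and 160 and 68 after incubation. Lipid genes were 1 higher at 4 °C, 0 and 0 at 16 °C, 6 and 1 at 24 °C, and 5 and 0 after incubation, and uptake genes 2 higher at 16 °C, 2 lower at 24 °C and 3 higher after incubation.

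Rescaling to 1000000 made all values larger while the pseudocount stayed at 1, so this setting also weakened the pseudocount. Its counts and shares do not show the effect of scaling alone. With it, all genes were 77 and 31 at 4 °C, 992 higher at 16 °C and 1295 at 24 °C. Lipid genes were 13 and 1 at 16 °C, 27 and 5 at 24 °C and 24 higher after incubation, and 2 uptake genes were lower at 16 °C. With size factors, all genes were 31 and 13 at 4 °C, and 1 uptake gene was lower after incubation. At a mean of 5 FPKM, all genes were 27 and 1 at 4 °C, and 359, 464 and 337 were higher at 16 °C, 24 °C and after incubation. There, 1 lipid gene was lower at 16 °C and 7 were higher after incubation. The share of higher genes among those called was 87.5%, 46.6%, 55.6% and 77.0% at 4, 16 and 24 °C and after incubation as deposited, against 70.5%, 47.4%, 48.9% and 63.4% with size factors and 71.3%, 60.5%, 67.0% and 78.7% with rescaling.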
